A study of Mus musculus with 7 samples.

Results

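Interferon regulatory factors (IRFs) are transcription factors that switch on interferon beta and the genes that respond to it. This account covers 10 genes of that circuit, taken by symbol from the 17920 genes of the table: Irf1, Irf2, Irf3, Irf4, Irf5, Irf7, Irf8, Irf9, the interferon beta gene Ifnb1 and Ifnar1, which encodes a chain of the type I interferon receptor. All 10 had a mean FPKM (the fragments of a gene relative to its length and to all mapped fragments) of at least 1 over the 7 libraries and were tested. RNA was sequenced from crushed spleens of C57BL/6 mice aged 8 weeks, each given 20 mg/kg lipopolysaccharide (LPS) into the peritoneum. Spleens were taken 90 min or 6 h after injection. At 90 min there were 2 wild-type mice and 2 mice labelled GdX-/-, and at 6 h there were 2 wild-type mice and 1 labelled GdX-/-. GdX is a ubiquitin-like protein encoded by the X-linked gene Ubl4a, and the mice labelled GdX-/- are called GdX-deficient here. The labels give the genotype of the whole mouse and name no promoter or Cre line. Every mouse received LPS and no unstimulated spleen was analysed here, so the data give no induction by LPS.

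LPS is sensed by the receptor TLR4, and its TRIF adaptor arm leads through the kinase TBK1 to phosphorylation of IRF3, a factor that is present before stimulation. Phosphorylated IRF3, together with NF-kappa B, starts transcription of Ifnb1. Secreted interferon beta binds the receptor chains IFNAR1 and IFNAR2, and the complex ISGF3, of which IRF9 is a subunit, then drives interferon-stimulated genes, Irf7 among them. IRF1 activates and IRF2 antagonises transcription at shared DNA elements, IRF5 acts in inflammatory cytokine induction, and IRF4 and IRF8 are factors of lymphoid and myeloid cells that bind with partners such as PU.1. Much of this regulation is by phosphorylation and nuclear entry, which RNA levels do not report.

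Promoters were searched for the letters of the DNA elements of this circuit listed below. Matches were found for Irf1, Irf2, Irf8 and Ifnb1, and none for Irf3, Irf4, Irf5, Irf7, Irf9 or Ifnar1. The sequences are from RefSeq on GRCm38.p6, where all 10 genes were found by symbol, with 13 start sites in all. Each is written 5′ to 3′ on the strand of the gene. Capitals mark matches, on either strand of the 250 bases before the start, to an IRF element (AANNGAAA), an interferon-stimulated response element core (GAAA, any 2 bases, then GAAA), a gamma-activated site (TTCNNNGAA, the STAT dimer element), the kappa B consensus (the NF-kappa B element), or an Ets-IRF composite element (GGAA, any 2 bases, then GAAA). Ifnb1 is shown because it was the member that changed most with time in wild type, on the minus strand at chr4:88522891-88522963, from 169 to 97 bases before the start. Irf1 and Irf2 are shown because their ratio separated the genotypes, Irf1 at chr11:53769914-53770013 (plus strand, the last 100 bases) and Irf2 at chr8:46739495-46739744 (plus strand, all 250 bases). Irf8 is shown for its pair of gamma-activated sites, at chr8:120736177-120736223 (plus strand, from 181 to 135 bases before the start).
Ifnb1: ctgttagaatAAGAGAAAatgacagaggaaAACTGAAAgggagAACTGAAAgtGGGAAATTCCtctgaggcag
Irf1: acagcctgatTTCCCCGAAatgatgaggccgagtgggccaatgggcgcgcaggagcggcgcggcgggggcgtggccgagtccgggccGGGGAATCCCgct
Irf2: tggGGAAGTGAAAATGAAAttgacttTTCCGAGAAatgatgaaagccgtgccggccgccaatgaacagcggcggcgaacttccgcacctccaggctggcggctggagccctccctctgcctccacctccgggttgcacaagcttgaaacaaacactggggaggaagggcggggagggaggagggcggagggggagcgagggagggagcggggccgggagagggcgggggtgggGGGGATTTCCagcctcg
Irf8: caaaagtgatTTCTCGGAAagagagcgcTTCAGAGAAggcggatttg

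The Ifnb1 stretch holds 3 IRF elements followed by 1 kappa B match. The Irf1 stretch holds 1 gamma-activated site and 1 kappa B match that reads on both strands. The Irf2 stretch opens with overlapping matches to the IRF element (2 of them), the response element core and the Ets-IRF element, followed by a gamma-activated site, and ends with a kappa B match. IRF elements were matched in 2 of the 10 members, the response element core in 1, gamma-activated sites in 3, kappa B in 3 and the Ets-IRF element in 1. Over 32851 promoters of the same length, the corresponding shares were 21.3%, 2.98%, 7.02%, 7.25% and 2.3%. A match describes letters and not occupancy, and no binding was measured.

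Before the members, some facts of the libraries bear on every comparison. Estimated depth was even, from 18400000 to 20500000 mapped fragments. The globin share of the summed FPKM ranged from 7.73% to 30.9%, and the values were not rescaled for it in the main results. The targeted gene Ubl4a, whose deleted part is not given in the sources used here, had 90 min values of 4.03 and 5.69 FPKM (GdX-deficient) and 5.62 and 7.50 FPKM (wild type), and 6 h values of 10.56 FPKM (GdX-deficient) and 11.88 and 14.01 FPKM (wild type). Its level therefore overlapped between genotypes at 90 min, whereas Gm44504, the Slc10a3-Ubl4a readthrough locus that overlaps it, lay from 0.66 to 1.86 FPKM in the 3 GdX-deficient libraries and from 14.5 to 51.1 in the 4 wild-type libraries. The second GdX-deficient library at 90 min stood apart. Across genes it correlated best with the 6 h GdX-deficient library (r = 0.966), with 0.963 to its own replicate, while the first GdX-deficient library at 90 min correlated best with a wild-type library of that time (r = 0.984). Neutrophil markers, 6 of 6 measured and none at 0, summed to 4654 FPKM in this library, 2514 in the 6 h GdX-deficient library and 669 to 1060 in the other 5. Each member's genotype difference at 90 min is given with and without it, and its part in other results was tested only where a value without it is printed.

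The members covered a wide range of RNA levels. On the FPKM scale, which is per length, Irf7, Irf1 and Irf8 were the 3 highest members in every library and Ifnb1 the lowest. By mean FPKM over the 7 libraries, Irf7 ranked 172nd of all genes in the table, Irf1 193rd and Irf8 232nd. Irf9 ranked 762nd, Irf5 948th, Irf3 1540th, Irf4 1687th, Irf2 1876th, Ifnar1 4174th and Ifnb1 9147th. The first 3 changed places between libraries: Irf1 led in both wild-type spleens at 90 min, Irf8 in the first GdX-deficient spleen at 90 min, and Irf7 in the other 4 libraries. Irf9 exceeded Irf5 in 6 of 7 libraries. The positions of Irf2, Irf3 and Irf4 also changed between libraries, so neighbours within these sets are not separated beyond their spread. Spread over the libraries ran from Irf3, whose highest value was 1.35 times its lowest, to Ifnb1, at 173 times.

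**Figure D1:**
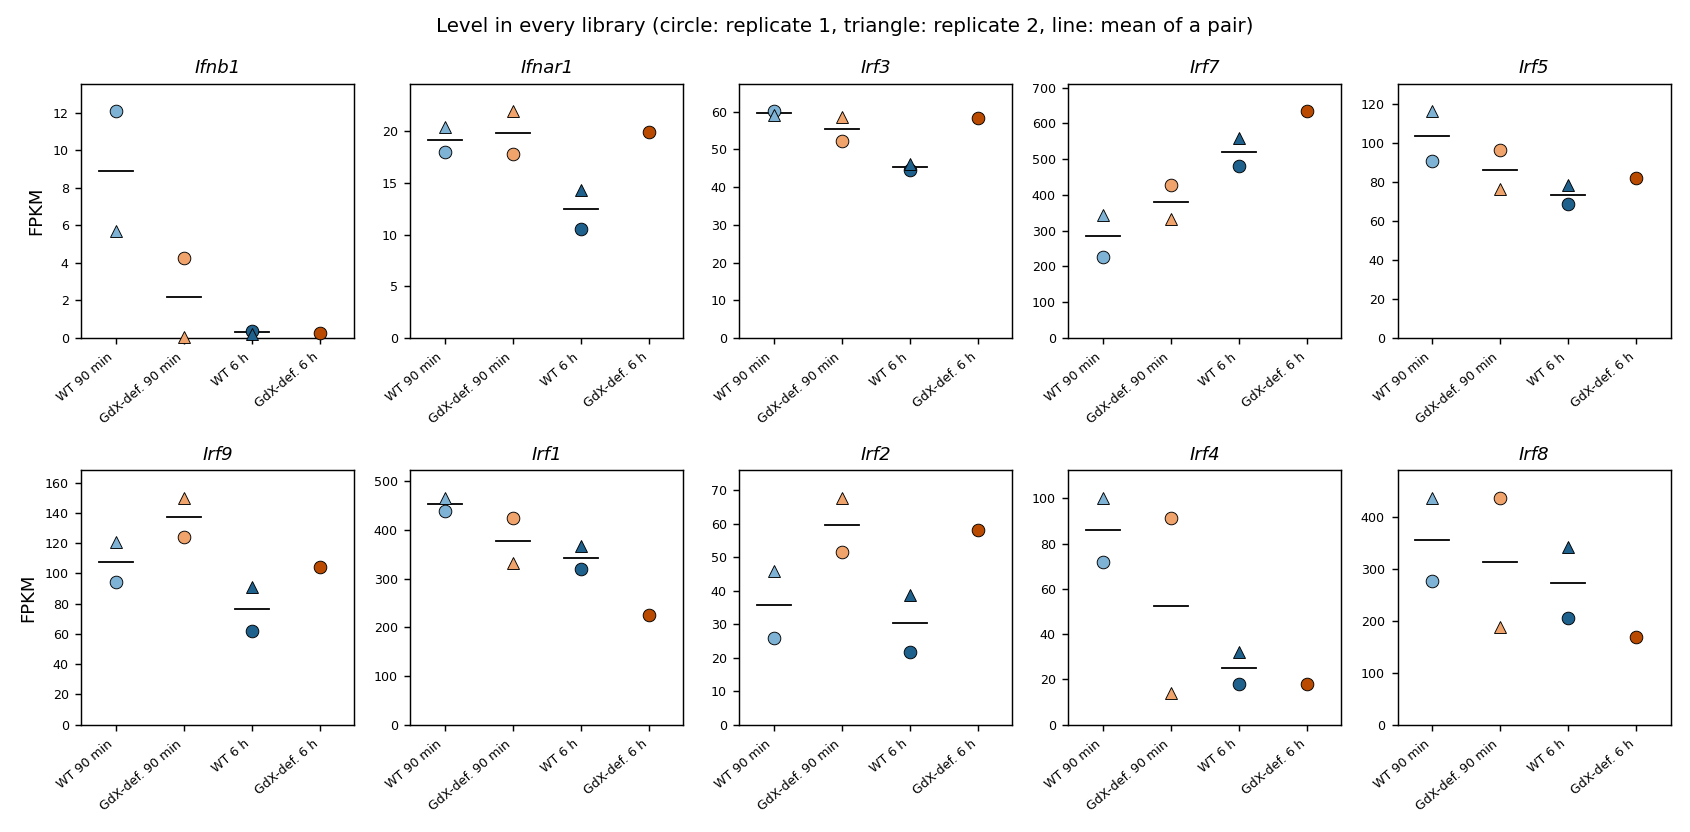
FPKM of the 10 members in each of the 7 libraries (1 panel per gene, linear axis from 0; circles are replicate 1, triangles replicate 2, lines the mean of a pair). Irf7 is higher in every 6 h library than in every 90 min library, Irf2 is higher in every GdX-deficient library than in every wild-type library, and Irf4 and Ifnb1 are split between the 2 GdX-deficient libraries at 90 min.

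Ifnb1 was present at 90 min and had nearly gone by 6 h in wild-type spleen. The wild-type libraries held 12.11 and 5.68 FPKM at 90 min (8.90 ± 4.55, SD, n = 2) and 0.39 and 0.20 at 6 h (0.295 ± 0.134, SD, n = 2). These values correspond to about 176, 84, 6 and 3 sequenced fragments, estimated from the depth. On the log2(FPKM + 1) scale Ifnb1 fell by 2.86 (SE 0.63, limma adjusted p = 0.0223) between 90 min and 6 h in wild type. It was the only member of 10 to pass the threshold of 0.05 in that comparison, in which 10.7% of all 11378 genes tested passed (4.39% higher, 6.32% lower at 6 h). Ifnb1 reached the mean of 1 FPKM through its 90 min values, so this call rests on the filter. With no filter on low values the adjusted p was 0.116, and it was under 0.05 in each of the other settings in which Ifnb1 was tested.

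Both GdX-deficient spleens at 90 min had less Ifnb1 RNA than both wild-type spleens, as did 23.4% of all genes, but the pair differed greatly. The values were 4.29 and 0.07 FPKM, or about 63 and 1 fragments, and the single 6 h GdX-deficient library held 0.27 FPKM, about 4 fragments. The second 90 min library was thus below every 6 h library. The difference from wild type at 90 min was -1.98 on the log2 scale (SE 0.63, unadjusted 95% interval from -3.39 to -0.56), and it did not pass the test (adjusted p = 0.573). No member passed in this comparison, and 0.0176% of all genes (2 genes) did. At an unadjusted p under 0.05 the member count was 1 of 10, Ifnb1, beside 7.58% of all genes. Without the second GdX-deficient library the difference was -0.82 (adjusted p = 0.999). Fitted on the 4 libraries of 90 min alone, the same difference had an adjusted p of 0.0259, in a fit that called 181 genes instead of 2. It was also called without either wild-type 6 h library (0.0207 and 0.0193) or without the second wild-type library at 90 min (0.0201).

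With both genotypes in 1 additive model, the change of Ifnb1 with time was -2.08 (SE 0.55, adjusted p = 0.0516). That change passed with the length correction, the replicate block or both, and with no filter on low values its limma adjusted p was 0.149. Without the second GdX-deficient library it was -2.59 (adjusted p = 0.00507). In GdX-deficient spleen alone the 6 h value lay between the 2 values of 90 min, and the log2 difference from their mean was -0.91, with no test because 1 library stands on 1 side. It was -2.06 without the second library at 90 min and 0.25 without the first, so it has no settled direction.

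The alpha-type interferon genes, which share the receptor and are induced by IRF7, were read over 14 genes of the table, of which Ifna2 alone reached the mean of 1 FPKM. Their sum was 14.08 and 4.10 FPKM in wild type at 90 min, 3.98 and 0.63 in GdX-deficient at 90 min, 0.60 and 1.38 in wild type at 6 h, and 0.79 in GdX-deficient at 6 h. The order of the libraries at 90 min resembled that of Ifnb1, with the first wild-type library highest and the second GdX-deficient library lowest. These sums rest on about 206, 61, 64, 10, 9, 18 and 12 fragments in the same order, and the genes are close copies, so the split between them is uncertain. The Ifna2 difference between 6 h and 90 min in wild type was -1.62 (SE 0.43, adjusted p = 0.0446). Ifna2 reached the mean of 1 FPKM through its 90 min values, so this call rests on the filter: with no filter the adjusted p was 0.146, and without the first wild-type library at 90 min the difference was -1.07 and did not pass.

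**Figure D2:**
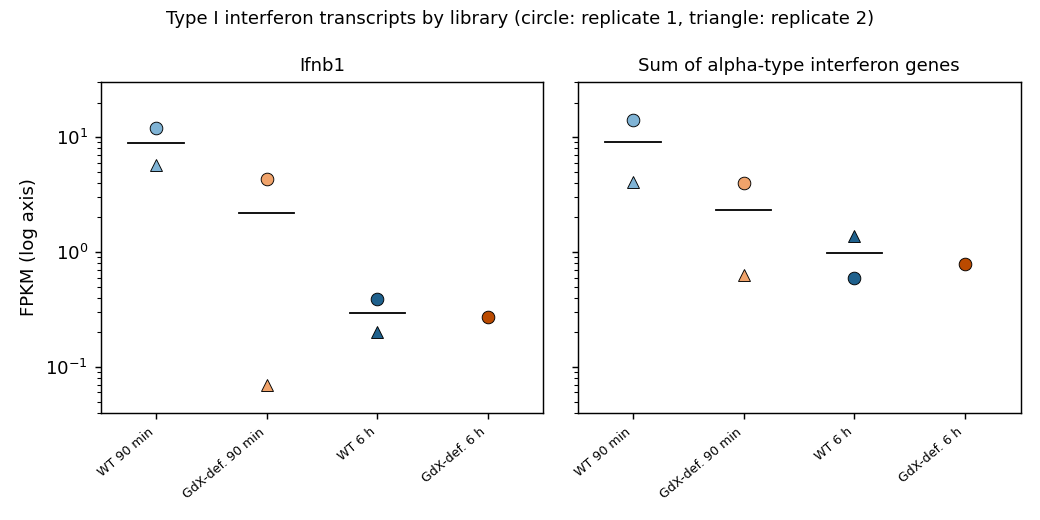
FPKM of Ifnb1 (left) and summed FPKM of 14 alpha-type interferon genes (right) in each library, on a log axis (circle replicate 1, triangle replicate 2, bar the group mean). Both quantities are highest in the first wild-type library at 90 min (12.11 and 14.08), and the GdX-deficient pair at 90 min is widely split (4.29 and 0.07, 3.98 and 0.63).

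Interferon gamma, the type II interferon made by natural killer and T cells and an inducer of Irf1, followed another course. Ifng was 9.53 and 10.07 FPKM in wild type at 90 min and 35.79 and 42.32 at 6 h, and it rose by 1.89 on the log2 scale (SE 0.38, adjusted p = 0.0167). In GdX-deficient spleen it was 18.68 and 7.86 at 90 min and 1.99 at 6 h. The single 6 h GdX-deficient library was the lowest of all 7, and the log2 difference over time there was -2.14, untested.

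Ifnar1 RNA varied little between genotypes at 90 min. It was 17.95 and 20.38 FPKM in wild type and 17.74 and 21.95 in GdX-deficient spleen, ranges that overlap, and the log2 difference was 0.04 (SE 0.28, interval from -0.59 to 0.68), and -0.10 without the second GdX-deficient library. At 6 h wild type had 10.56 and 14.29 FPKM and the GdX-deficient library 19.89, a log2 difference of 0.65 with no test, where the median over all genes was 0.32. In wild type its change with time was -0.60 (adjusted p = 0.197).

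Irf3, the constitutive factor that receives the TLR4 signal, was the steadiest member. It was 60.21 and 59.14 FPKM in wild type at 90 min, 52.17 and 58.64 in GdX-deficient at 90 min, 44.45 and 46.20 in wild type at 6 h and 58.21 in GdX-deficient at 6 h. The wild-type 6 h pair was thus below all 5 other libraries. The change with time in wild type was -0.39 (SE 0.24, adjusted p = 0.309), and the genotype difference at 90 min was -0.11 (SE 0.24), which was -0.19 without the second GdX-deficient library, 0.02 after quantile normalization and 0.10 after rescaling without globin. Irf5 lay between 68.46 and 116.38 FPKM in all libraries, with log2 differences of -0.26 (adjusted p = 0.703, and -0.093 without the second GdX-deficient library) by genotype at 90 min and -0.48 (adjusted p = 0.254) by time in wild type. Exons of Irf3 share 2.56% of their bases with Bcl2l12 and those of Irf5 14.1% with Tnpo3, both on the opposite strand, and the sources used here do not state whether counting used strand. Irf1 shares 3.4% with Gm17334 and Irf7 1.19% with Phrf1, also on the opposite strand. Irf9 shares 2.28% with Rnf31 on the same strand, which counting by strand would not separate.

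Irf7, the interferon-inducible factor that amplifies the alpha response, was the only member with higher values in every 6 h library than in every 90 min library. It was 227.32 and 345.04 FPKM in wild type and 427.09 and 333.06 in GdX-deficient spleen at 90 min. At 6 h it was 480.77 and 560.58 in wild type (521 ± 56.4, SD, n = 2) and 635.08 in the GdX-deficient library. Among all genes, 13.5% were likewise higher in every 6 h library. The log2 difference with time was 0.89 in wild type (SE 0.30, adjusted p = 0.0866) and 0.83 with genotype as a covariate (SE 0.23, adjusted p = 0.0578), so neither passed. In wild type it ran from 0.59 without the first library at 90 min to 1.19 without the second, and it passed in 1 of 18 settings (adjusted p = 0.0487 without the first wild-type library at 6 h). It was 0.75 in GdX-deficient spleen, untested. The genotype difference at 90 min was 0.43 (SE 0.30, adjusted p = 0.639), and the libraries overlapped. It was 0.61 without the second GdX-deficient library, 0.13 without the first wild-type library and 0.73 without the second.

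Irf9, the DNA-binding subunit of ISGF3, was higher in GdX-deficient than in wild-type spleen at both times without passing a test. At 90 min it was 124.14 and 150.03 against 94.52 and 120.56 FPKM, and at 6 h 104.47 against 62.25 and 91.27. The log2 difference was 0.35 at 90 min (SE 0.28, adjusted p = 0.657), 0.47 at 6 h and 0.40 with time as a covariate (SE 0.22, adjusted p = 0.257). Over the settings tried the 90 min difference ran from 0.18 to 0.56, with 0.22 without the second GdX-deficient library. At 6 h it was 0.19 without the first wild-type library and 0.74 without the second.

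Irf1 and Irf2, the activator and the antagonist, lay on opposite sides of wild type. Irf1, an immediate interferon and NF-kappa B target, was 438.35 and 466.03 FPKM in wild type (452 ± 19.6, SD, n = 2) and 423.22 and 332.24 in GdX-deficient spleen at 90 min (378 ± 64.3, SD, n = 2). At 6 h it was 319.92 and 366.35 in wild type and 225.09 in the GdX-deficient library. GdX-deficient values were below wild type at either time, by -0.27 at 90 min (SE 0.26, adjusted p = 0.691; -0.095 without the second GdX-deficient library and -0.44 without the first), -0.60 at 6 h and -0.40 with time as a covariate (SE 0.21, adjusted p = 0.233). With time Irf1 differed by -0.40 in wild type (adjusted p = 0.342) and by -0.73 in GdX-deficient spleen, untested.

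Irf2 was 51.50 and 67.82 FPKM in GdX-deficient against 25.83 and 45.77 in wild-type spleen at 90 min, and 58.18 against 21.76 and 38.83 at 6 h. It was the only member for which every GdX-deficient library lay above every wild-type library, as 10.2% of all genes did. The log2 difference was 0.76 at 90 min (SE 0.36, adjusted p = 0.621) and 0.97 at 6 h. At 90 min it was 0.57 without the second GdX-deficient library, and 0.36 and 1.16 without the first and the second wild-type library. At 6 h it was 0.57 and 1.38 without the first and the second wild-type library. With time as a covariate it was 0.85 (SE 0.28, unadjusted 95% interval from 0.24 to 1.46, adjusted p = 0.115), the only member of 10 with an unadjusted p under 0.05 there, beside 27% of all genes. No member passed after adjustment, and 0.0439% of all genes did. Without the second GdX-deficient library it was 0.77 (adjusted p = 0.353). Over all settings the adjusted p lay between 0.0527 and 0.621 and the difference between 0.67 and 1.09. The first wild-type library of each time was the lower of its pair, at 0.564 and 0.560 times the second.

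The ratio of Irf1 to Irf2 within a library was chosen after its values were seen and is given as a description. It was 17.0 and 10.2 in wild type at 90 min, 14.7 and 9.43 in wild type at 6 h, 8.22 and 4.90 in GdX-deficient at 90 min and 3.87 in GdX-deficient at 6 h. Every GdX-deficient library was below every wild-type library. Irf2 alone already separated the genotypes, being higher in every GdX-deficient library, as 10.2% of all genes were. The share of gene ratios that separate the genotypes was not computed. The ratio of Irf7 to Irf3 instead followed time: it was 3.78 and 5.83 in wild type and 8.19 and 5.68 in GdX-deficient spleen at 90 min, against 10.8, 12.1 and 10.9 at 6 h. Irf7 alone was likewise higher in every 6 h library, as 13.5% of all genes were.

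**Figure D3:**
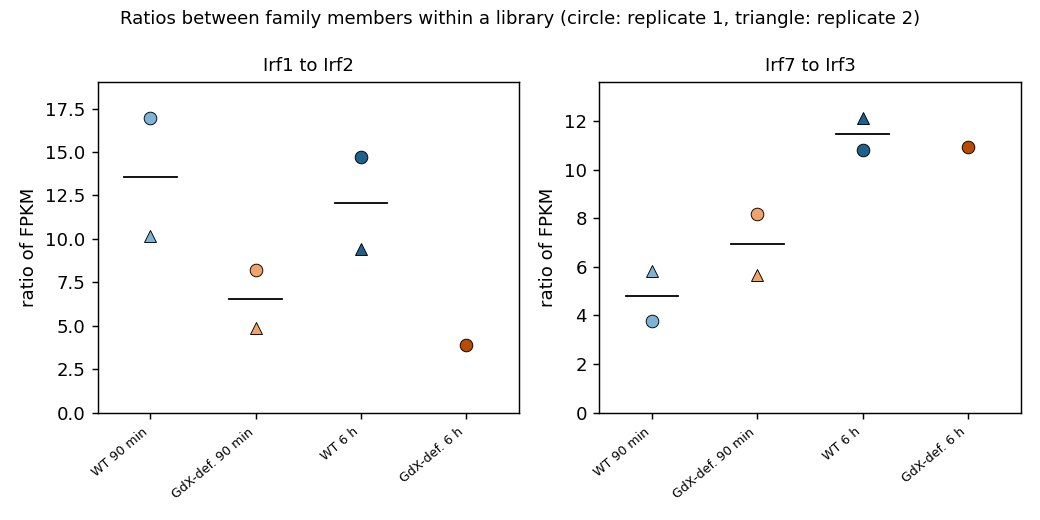
Ratio of Irf1 to Irf2 (left) and of Irf7 to Irf3 (right) in FPKM in each library, on linear axes from 0 (circle replicate 1, triangle replicate 2, bar the group mean). The Irf1 to Irf2 ratio is 8.22 or less in the 3 GdX-deficient libraries and 9.43 or more in the 4 wild-type libraries, and the Irf7 to Irf3 ratio is 10.8 or more at 6 h and 8.19 or less at 90 min.

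Irf4, which is induced in activated lymphocytes and dendritic cells, showed a split like that of Ifnb1. It was 72.06 and 100.33 FPKM in wild type at 90 min (86.2 ± 20.0, SD, n = 2), and 18.10 and 32.03 at 6 h. GdX-deficient spleen had 91.15 and 13.87 FPKM at 90 min and 18.10 at 6 h. The second GdX-deficient library was the lowest of all 7 and the first lay within the wild-type pair. The change with time in wild type was -1.78 (SE 0.69), with an adjusted p of 0.127, and of 0.0308 without the second GdX-deficient library, which contributes only to the estimate of the spread in that comparison. It was 0.0313 without the first GdX-deficient library and 0.00654 without the second wild-type library at 6 h. The genotype difference at 90 min was -1.22 (SE 0.69, adjusted p = 0.625), and 0.10 without the second GdX-deficient library.

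Irf8, a factor of monocytes, dendritic cells and B cells, was 276.64 and 437.37 FPKM in wild type and 437.85 and 188.76 in GdX-deficient spleen at 90 min. At 6 h it was 204.83 and 343.01 in wild type and 168.39 in GdX-deficient spleen. Its genotype difference at 90 min was -0.27 (SE 0.43, adjusted p = 0.810), 0.33 without the second GdX-deficient library and 0.06 without the second wild-type library. The spread within a pair was therefore as wide as any difference between groups. The Irf8 to Irf4 ratio was 3.84 and 4.36 in wild type and 4.80 in the first GdX-deficient library at 90 min, and from 9.30 to 13.6 in the second GdX-deficient library and the 3 libraries of 6 h.

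B cells and dendritic cells, in which Irf4 and Irf8 are known to act, were read from their markers. B cell markers, 8 of 8 measured and none at 0, summed to 1643 and 1562 FPKM in wild type at 90 min and 529 and 596 at 6 h, and 3 of 8 fell with time in wild type. Calls with time in wild type stand here beside 4.39% of all genes called higher and 6.32% called lower. Cd79a was the largest term of the B cell sum in wild type at 90 min (724 and 667 FPKM, against 99.4 and 70.7 at 6 h). Cd22 and Pax5 overlapped between the times in wild type. In GdX-deficient spleen the sums were 1360 and 2274 at 90 min and 1941 at 6 h. Markers of conventional dendritic cells of type 1, 5 of 5 measured and none at 0, summed to 20.3 and 19.3 in wild type at 90 min and 7.86 and 7.92 at 6 h, with 22.1, 28.8 and 14.3 in the GdX-deficient libraries. Of the 4 tested, 3 fell with time in wild type. Conventional dendritic cell type 2 markers, 4 of 4 measured and none at 0, summed to 44.0 and 45.8 in wild type at 90 min and 77.4 and 85.7 at 6 h, and to 37.6, 62.6 and 116 in the GdX-deficient libraries. Dtx1 carries most of that sum and was the 1 called higher in wild type, while Clec4a4 and Clec10a had lower values in both wild-type libraries of 6 h, and 1 of the list was called lower. Plasmacytoid dendritic cell markers, 6 of 6 measured and none at 0, summed to between 46.3 and 62.1 in all libraries, a sum in which Tcf4 is the largest term, and in wild type 5 of 6 were lower in both libraries of 6 h than in both of 90 min, 1 of them called, with Cox6a2 higher. In wild type the B cell and type 1 dendritic cell sums were lower at 6 h, as Irf4 and Ifnb1 were. In the GdX-deficient pair at 90 min they ran the other way: the second library had the highest sum of both marker lists and the lowest Irf4 and Ifnb1 of all 7 libraries. Not every marker followed its sum: Fcer2a (106 FPKM) and Cadm1 (6.12 FPKM) were lower in that library than in every other 90 min library. The remaining markers of both lists were highest in it among the 90 min libraries. In whole spleen, fewer cells of a type and less RNA per cell cannot be told apart.

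Over the 10 members, genotype separated libraries about as often as it did for other genes. At 90 min, 2 members lay above and 3 below wild type in both libraries, 5 of 10 beside 47.5% of all genes (24.1% above and 23.4% below). At 6 h the single GdX-deficient library lay outside the wild-type pair for 8 of 10 members, beside 80.3% of all genes, and no member was both outside the pair and at least 2-fold different, which 22% of all genes were. Irf1, Irf2 and Irf9 lay on the same side of wild type at both times, as 32.1% of all genes did. The median log2 difference of the members by genotype was -0.18 at 90 min and 0.23 at 6 h, beside 0.07 and 0.32 for all genes tested.

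Over time in wild type most members had lower values, and so had markers of several cell types: 7 of 7 erythroid, 4 of 7 T cell and 3 of 6 red pulp macrophage markers were called lower, beside 6.32% of all genes. None of these markers was at 0 in any library, and their part in the members' values was not tested. From 90 min to 6 h, 7 of 10 members were lower in both libraries and 1 higher, beside 27.6% and 30.3% of all genes (57.9% together). The median log2 change was -0.44, beside 0.05 for all genes. In unadjusted terms 3 members had a p under 0.05, Ifnb1, Irf4 and Irf7, beside 28.7% of all genes. In the model with genotype as a covariate no member passed, 5.44% of all genes did, and 4 members had an unadjusted p under 0.05, beside 26.6% of all genes. In GdX-deficient spleen the 6 h library was above both of 90 min for 1 member and below for 3, beside 56.8% and 15.8% of all genes (72.6% together), and no member changed at least 2-fold outside the pair, as 5.73% of all genes did.

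**Figure D4:**
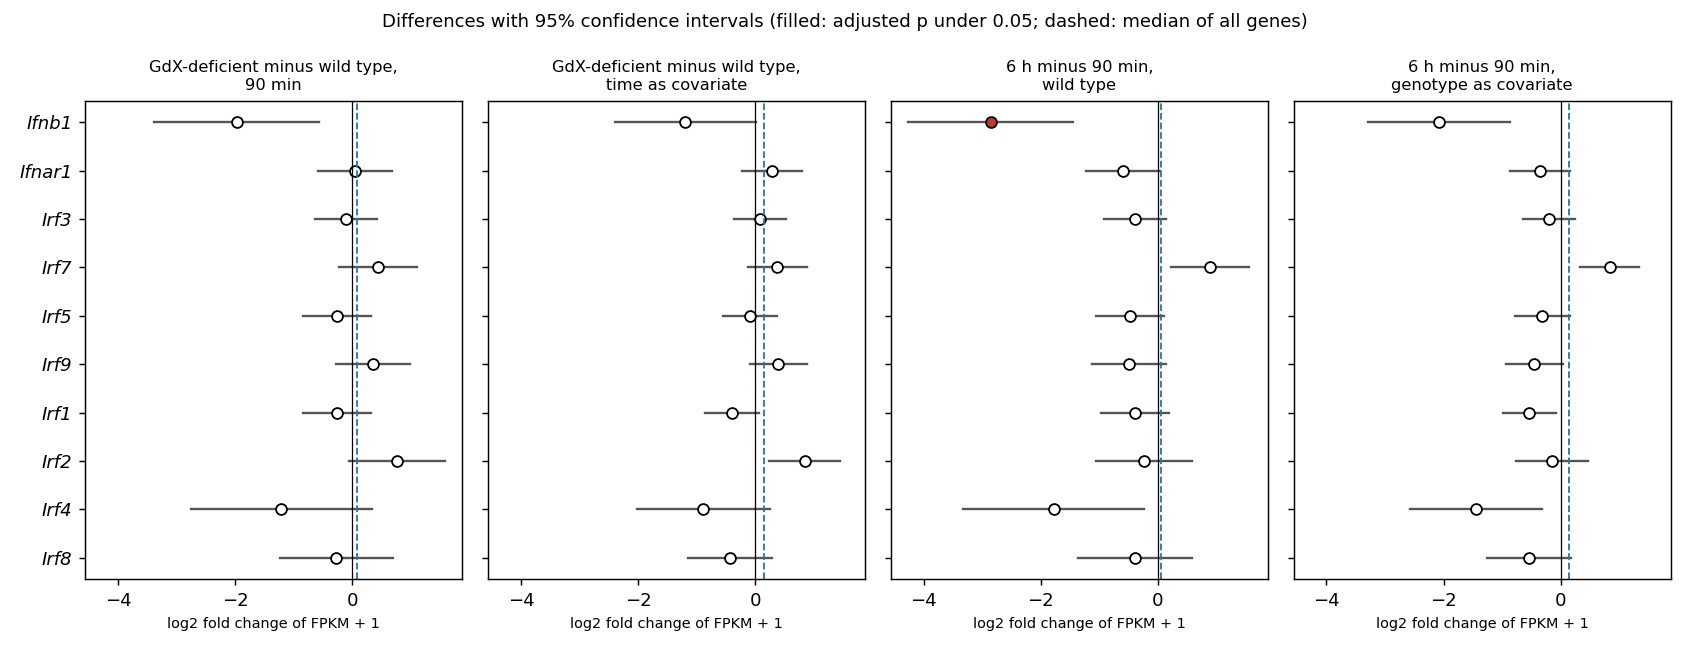
Log2 differences of the 10 members by genotype (GdX-deficient minus wild type) and by time (6 h minus 90 min), on the log2(FPKM + 1) scale. The 4 panels are the 4 tested comparisons, bars are unadjusted 95% intervals, and the dashed line is the median over all genes. Ifnb1 with time in wild type (-2.86) is the only one with an adjusted p under 0.05, and the Irf2 genotype difference (0.85 with time as a covariate) has an interval from 0.24 to 1.46. The Ifnb1 call rests on the filter on low values, and with no filter its limma adjusted p was 0.116.

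The rest of the pathway was read from gene lists. No gene of any list passed for genotype, at 90 min or with time as a covariate. Some list genes did pass for genotype in fits with 1 library left out. Those fits leave 1 library in a group and called very different numbers of genes in all, so their list counts are not read here. Upstream, among 15 genes of the LPS receptor and the TRIF arm, Tbkbp1, an adaptor of TBK1, rose with time in wild type by 1.61 (adjusted p = 0.0326). Cd14, the LPS co-receptor, fell by 1.06 (adjusted p = 0.0393), as did Ticam2, the adaptor that bridges TLR4 to TRIF, by 1.06 (adjusted p = 0.0490). These were 3 of the 15, beside 10.7% of all genes in that comparison. Over the settings tried, Cd14 passed in 12 of 18, Tbkbp1 in 10 of 17 and Ticam2 in 7 of 17, and without the first wild-type library at 90 min none of the list passed. The median of this list by genotype at 90 min was 0.26, beside 0.07 for all genes, but 0.046 without the first wild-type library and 0.37 without the second.

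Among 11 genes of the interferon receptors and ISGF3 signalling, Socs3, a feedback inhibitor of JAK-STAT signalling, fell with time in wild type by 1.76 (adjusted p = 0.0387; 14 of 18 settings). With genotype as a covariate 3 of the 11 fell: Socs3 by 1.96 (adjusted p = 0.0146), Socs1, a second inhibitor of that family, by 1.19 (adjusted p = 0.0435) and Usp18, which blocks signalling at the receptor, by 0.91 (adjusted p = 0.0419). Among all genes 5.44% passed in that model. Socs1 and Usp18 passed in 8 of 17 settings each, and Socs3 in 16 of 17. Without the 6 h GdX-deficient library the Socs1 change was -0.73.

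Of the 26 ISGF3 target genes tested, the few that passed with time were split between both directions. With time in wild type 3 rose and 3 fell, beside 4.39% and 6.32% of all genes, and the median log2 change was 0.06. With genotype as a covariate 2 rose and 6 fell, beside 5.44% of all genes in both directions, and the median was -0.08. Those that fell there included Cmpk2, a mitochondrial nucleotide kinase, by 1.22 (adjusted p = 0.0274), and the chemokine gene Cxcl10, by 1.38 (adjusted p = 0.0396). Cmpk2 passed in 12 of 17 settings and Cxcl10 in 10 of 17. The Cxcl10 change was -0.84 without the 6 h GdX-deficient library, and -0.84 in wild type alone, where it did not pass (limma adjusted p = 0.145). The 3 that fell in wild type belong to the IFIT family of RNA-binding proteins: Ifit1 by 1.79 (adjusted p = 0.00480), Ifit3b by 1.26 (adjusted p = 0.0198) and Ifit3 by 1.00 (adjusted p = 0.0341). Ifit3 and Ifit3b are close copies, so the split of their reads is uncertain. Those that rose in wild type were Oasl2, of the oligoadenylate synthetase family, by 1.24 (adjusted p = 0.0422), Zbp1, a sensor of Z-form nucleic acid, by 1.22 (adjusted p = 0.0314), and Oas1a, an oligoadenylate synthetase, by 1.15 (adjusted p = 0.0423). Without the first wild-type library at 90 min only 2 of the 26 passed, and without the second wild-type library at 6 h 13 did. Ifit1 passed in 18 of 18 settings, Ifit3b in 15, Zbp1 in 14, Ifit3 in 12, Oasl2 in 10 and Oas1a in 8. By library, Ifit1 was at 509 and 444 FPKM in wild type and 515 and 419 in GdX-deficient spleen at 90 min, against 141, 133 and 131 at 6 h. In the second GdX-deficient library, where Ifnb1 was 0.07 FPKM, Ifit1 was thus slightly below the other 90 min libraries and well above every 6 h library. By genotype at 90 min 21 of the 26 targets had a positive difference, with a median of 0.25, beside 56.5% of all genes and a median of 0.07. That median was 0.02 without the first GdX-deficient library and 0.55 without the second.

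Of 10 IRF1 target genes, Gbp2, a guanylate-binding protein induced by interferon gamma, rose with time in wild type by 1.69 (adjusted p = 0.0122), and Il12b, which encodes the p40 subunit of interleukin 12, fell by 3.79 (adjusted p = 0.0170). Among all genes 4.39% were called higher and 6.32% lower in that comparison. Il12b was 62.09 and 52.78 FPKM in wild type at 90 min and 38.89 and 3.76 in GdX-deficient spleen, with 2.65, 3.83 and 1.31 at 6 h. The second GdX-deficient library again held a value in the range of the 6 h libraries. Among the partners of IRF4 and IRF8, Spib, an Ets factor of B cells and plasmacytoid dendritic cells, fell by 1.47 in wild type (adjusted p = 0.0332), from 77.04 and 104.77 to 22.08 and 45.58 FPKM. It passed in 11 of 18 settings, and the change was -0.96 without the first wild-type library at 6 h and -1.98 without the second. It was 75.55 and 104.37 at 90 min and 152.55 at 6 h in GdX-deficient spleen. None of 8 cofactors of IRF2 and IRF3 passed in any of the 4 tested comparisons by limma, and 3 had an unadjusted p under 0.05 with time in wild type, beside 28.7% of all genes.

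**Figure D5:**
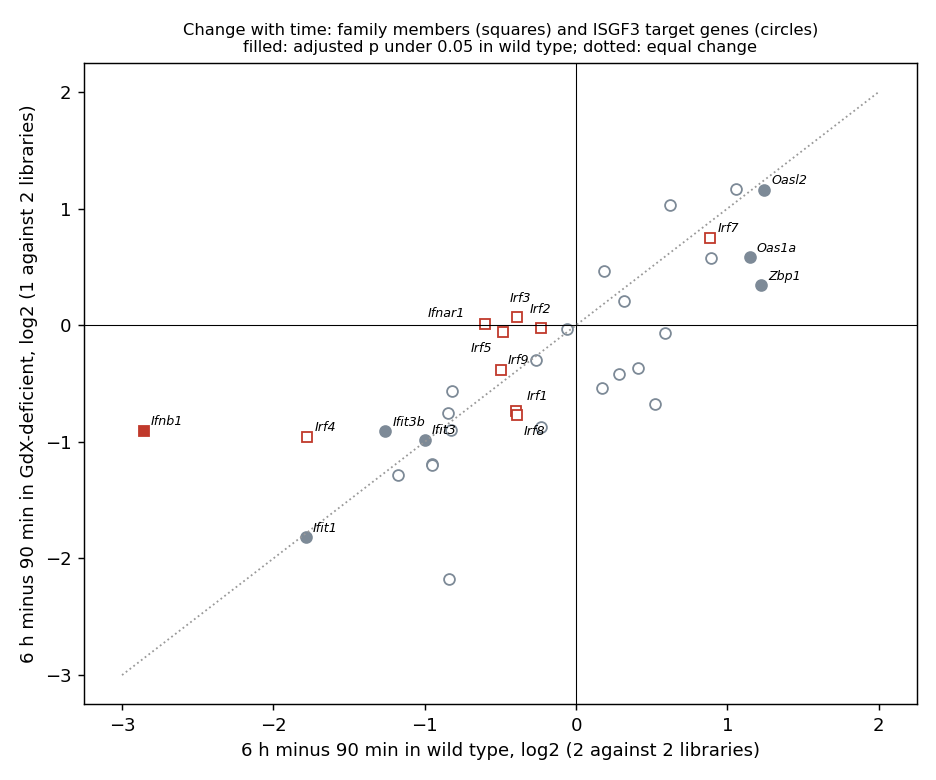
Log2 change from 90 min to 6 h in wild type (horizontal, 2 against 2 libraries) and in GdX-deficient spleen (vertical, 1 against 2 libraries, no test) for the 10 members (squares) and the 26 ISGF3 target genes (circles), filled where the wild-type change passed the threshold. Irf7 lies near the line of equal change (0.89 and 0.75), and Ifnb1 lies above it (-2.86 and -0.91, the second being -2.06 without the second GdX-deficient library at 90 min and 0.25 without the first).

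Genes with the most similar profiles were listed for each member by Pearson's r of log2(FPKM + 1) over the 7 libraries, out of 10900 genes. The closest to Irf7 was Oasl2 (r = 0.996), itself an interferon-stimulated gene, followed by Rasa4 (0.963) and Nlrc5 (0.962), a regulator of MHC class I genes. Irf4 was closest to Vash1 (0.985), the immediate early gene Nr4a1 (0.985) and the cytokine gene Lif (0.983). Irf1 was closest to Rnd1 (0.990), Tifa (0.980) and D16Ertd472e (0.976), Irf8 to Ythdf1 (0.976), Kdm6b (0.976) and Zc3h12a (0.972), and Ifnb1 to Alg13 (0.985), Pmp22 (0.977) and Schip1 (0.975). Irf2 was closest to Med13l (0.993) and Incenp (0.993), Irf9 to Csprs (0.995), Mfsd6 (0.993) and Prkcq (0.992), and Ifnar1 to Cdc14a (0.994), Rspry1 (0.992) and Ulk2 (0.991). Irf3 was closest to Acaa2 (0.992), Gcnt2 (0.991) and Ptpn12 (0.991), and Irf5 to Cdr2l (0.974), Col7a1 (0.973) and Ift122 (0.964). These genes were picked as the highest of 10900 coefficients over 7 libraries that share groups, and the coefficients are a description only.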

How the data were processed

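The authors deposited FPKM values with 1 column per library and no counts, per the file headers, and the series' text gives 4 wild-type and 3 GdX-deficient mice. The submitters' processing notes name HISAT, HISAT2 2.0.4, Bowtie2, RSEM and GRCm38.p5, without roles. The protocol in the labels leaves poly(A) selection or rRNA depletion open. Values were tested as log2(FPKM + 1), which understates changes of low genes, for 11378 genes (mean FPKM 1 or more), with limma 3.58.1 in R 4.3.3 (empirical Bayes with a trend, two-sided, Benjamini-Hochberg over all genes). A fit of the 4 groups gave genotype at 90 min and time in wild type, and additive models gave each factor with the other as a covariate. Comparisons with the single 6 h GdX-deficient library alone were described without a test. Libraries that do not overlap were counted over 11377 symbols, since 1 symbol is listed more than once. Depth was estimated from the steps of low FPKM values, of which 67% to 72.9% per library lay within 0.15 of a whole fragment, so no count test was run. Fragment numbers carry the error of the depth estimate and of the transcript length used as well as counting error, and they give no spread between mice. The members, the pathway and marker lists and the naming rule (all members, of each list at most 6 genes past the threshold per comparison, and 3 genes of most similar profile, of which 1 is not reported here) were chosen with earlier results of these data known. Scripts were tested on simulated data.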

Additional observations from a re-analysis of the deposited data

Results flagged for a closer look

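The 3 results below were flagged among 30 named members and list genes looked at. Irf3, the constitutive factor downstream of TLR4, differed by genotype in opposite directions at the 2 times: every GdX-deficient library was below wild type at 90 min (-0.11 on the log2 scale) and the single one was above both at 6 h (0.35). The median over all genes at 6 h was 0.32. At 90 min the Irf3 difference was 0.02 after quantile normalization and 0.10 after rescaling without globin, so its direction is not settled. Ifng was higher in both 6 h libraries than in both 90 min libraries of wild type (1.89) and lower in the 6 h GdX-deficient library than in both of 90 min (-2.14). Spib was lower at 6 h in wild type (-1.47) and higher in GdX-deficient spleen (0.77). In none of the 3 was the difference between the groups itself tested, because 1 group has 1 library.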

How the results depend on the processing

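Of 666 recomputed member results, 630 kept their direction and side of the threshold, 15 newly passed it, 1 no longer passed and 20 changed sign, all 20 in differences that had not passed. The cause was not tested. By genotype at 90 min the reversals were Irf3 (0.018 quantile-normalized, 0.10 rescaled without globin), Irf4 (0.10 without the second GdX-deficient library, and -2.53 without the first), Irf8 (0.33 without the second, -0.88 without the first, 0.06 without the second wild-type library) and Ifnar1 (-0.15 with the length correction, alone or with the replicate block, -0.10 without the second GdX-deficient library, -0.04 without the first wild-type library, against 0.19 without the first GdX-deficient library). With time as a covariate they were Irf3 (-0.11 without the 6 h GdX-deficient library, up to 0.16 without the first at 90 min), Irf5 (0.069 quantile-normalized, 0.15 without globin, 0.035 without the second GdX-deficient library at 90 min, 0.043 without the second wild-type library at 90 min, down to -0.26 without the 6 h GdX-deficient library) and Ifnar1 (-0.0070 with the length correction, -0.020 with the replicate block as well). Irf2 over time was 0.17 in wild type without the first wild-type library at 6 h or the second at 90 min (lowest -0.64), and with genotype as a covariate 0.073 and 0.072 (lowest -0.33). Signs also changed in the untested comparisons. Over time in GdX-deficient spleen this held for Irf2, Irf3, Irf5, Ifnar1, Ifnb1 and Irf4 (-2.27 without the second 90 min library, 0.36 without the first). By genotype at 6 h it held for Ifnb1 (-0.13 and 0.08 with 1 wild-type library left out).

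Genes called by genotype at 90 min (2) were 0 without globin and with the length correction, alone or with the replicate block, 181 on the 4 libraries alone, and 2 to 183 with 1 library left out (183 without the second wild-type library at 6 h). Members called (0) were 1 on the 4 libraries alone and 0 to 1 with 1 library left out. By time in wild type the 1218 calls (499 higher, 719 lower) became 635 with no filter, 712 without globin (187 higher, 525 lower), 2423 with the length correction, 2345 with the replicate block, 2689 with both, and 450 to 1774 with 1 library left out. Members called (1) were 0 with no filter and at a mean of at least 5 FPKM, where Ifnb1 was not tested, 2 on the 4 libraries alone, and 1 to 2 with 1 library left out. By genotype with time as a covariate, 5 calls became 2 without globin, 12 with the replicate block, 0 with block and length correction, and 2 to 1674 with 1 library left out, the most without the first GdX-deficient library at 90 min. By time with genotype as a covariate, 619 calls (318 higher, 301 lower) became 104 with no filter, 289 without globin (102 and 187), 1201 with the length correction (387 and 814), 938 with block and length (281 and 657), 883 quantile-normalized (305 and 578), and 154 to 1204 with 1 library left out. Members called (0) were 1 with the length correction, the replicate block or both, Ifnb1 in each, and 0 to 2 with 1 library left out. At 6 h, 2501 genes counted by genotype (1879 higher, 622 lower) became 1832 quantile-normalized (951 and 881), 1867 with the length correction (929 and 938), 3685 without globin (3317 and 368) and 1887 to 3830 with 1 library left out, and members counted (0) were 1 without globin and 1 with either wild-type library left out. Over time in GdX-deficient spleen, 652 (465 and 187) became 1033 with a pseudocount of 0.1, 421 at a mean of at least 5 FPKM, 587 quantile-normalized (262 and 325), 556 with the length correction (220 and 336) and 585 to 1336 with 1 library left out, and members counted (0) were 2 with the length correction and 0 to 3 with 1 library left out. Rescaling without globin moved the median genotype difference of all genes from 0.07 to 0.27 at 90 min and from 0.32 to 0.59 at 6 h.

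The replicate numbers are not stated to mark shared litters or days. Same-numbered libraries deviated together in wild type (r = 0.77 between times) but not between genotypes at 90 min (r = -0.12), where a crossed pairing, added after seeing the data, also gave 2 calls. The replicate differences followed transcript length (Spearman's rho -0.17, -0.45 and -0.59 over 11180 genes in the 3 pairs). Among the 31 list-gene results, 350 of 507 recomputations kept their side of the threshold, 157 lost it and 0 reversed. The count-based alternatives were not run, because the table holds no counts.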
